A study of Mus musculus with 4 samples.

Results

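The axon guidance ligands and receptors were followed here across the cell types of the adult mouse hypothalamus. They were taken by gene symbol, as the Eph receptors, the ephrins, semaphorin classes 3 to 6, the plexins and neuropilins, the Robo receptors, the Slit ligands, the Unc5 receptors with Dcc, and the netrins. The rule found 68 of the 32285 genes in the count tables: 14 Eph receptors, 8 ephrins, 19 semaphorins, 11 plexins and neuropilins, 4 Robo receptors, 3 Slit ligands, 5 genes of the Unc5 and Dcc group and 4 netrins. The rule itself used no measured value, but the genes were chosen with earlier results of these data known.

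Guidance ligands steer growing axons and migrating cells. Ephrins sit on the cell surface and bind Eph receptor kinases, and the receptor-bearing and ephrin-bearing cells can both respond. Semaphorins act through plexins, with neuropilins as the binding partner for the secreted class 3 members. Slits repel cells through Robo receptors, and netrins attract through Dcc or repel through Unc5 receptors. In the adult brain many of these genes remain transcribed in neurons and glia, where they are known for roles at synapses, in oligodendrocyte lineage migration and in the tissue around the ventricles.

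The data were UMI counts (unique transcript molecules) from single nuclei of snap-frozen hypothalamus. Adult male mice on the C57/BL6NCr background were either wild type or TRα1+m, which carry, in heterozygous form, a mutant thyroid hormone receptor α1 with impaired hormone binding, a germline change that is not limited to any cell type. Each of the 4 libraries pooled 3 mice of 1 genotype, and each of 2 experimental repeats gave 1 wild-type and 1 TRα1+m library, so a genotype had n = 2 libraries. UMIs were summed per library over each cluster that the authors had annotated and are given as CPM (counts scaled to a cluster total of 1000000), repeat 1 first, with mean ± SD over libraries. The CPM of a gene can be compared between clusters, whereas levels of different genes were not compared. With 2 libraries against 2, an exact two-sided permutation test cannot go below p = 0.333, so that genotype calls rest on edgeR's quasi-likelihood test across all genes. Its p-values measure the spread between the libraries of a genotype, which differ in both the pool of mice and the repeat. The test draws the spread of each gene toward a spread shared across genes, so the p-values rest in part on other genes. A second fit took the repeat as a block, which pairs the libraries by repeat. It leaves 1 residual degree of freedom per gene, against 2 without the block. Its p-values thus rest largely on a spread shared across genes, and calls made only with the block are to be read with that limit. Tests of a genotype effect between clusters took the library as a block, and their spread is that of differences within libraries. Their p-values, too, rest largely on a spread shared across genes and are to be read with the same limit.

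The libraries held 11976 to 16435 kept nuclei and 47260127 to 59112785 UMIs, with medians of 2904 to 4018 UMIs per nucleus. A pair of libraries shared 44 to 64 cell barcodes. In each of the 5 main clusters its own marker list was 4.94 to 44.9 times as high as in the next cluster. Neuronal transcripts were nevertheless counted in glial clusters, Snap25 at 40.1 to 57.9% and Syt1 at 8.99 to 12.9% of their level in the main neuronal cluster, Neurons_1. Rbfox3, Snhg11 and Celf4 of the same list stood at 10.6 to 29.2%. Syn2, also listed, stood at 91.5% in astrocytes, 117% in OPC, 28.2% in oligodendrocytes and 34.2% in microglia and macrophages, so it did not mark neurons alone. A low glial level of a neuronal guidance gene may be read only against that background. Among the neuronal sub-clusters, the one labelled Orexin+ was not the highest in Hcrt, the orexin transcript, with a mean of 69.6 CPM, the lowest of the 12, against 827 CPM in Glutamatergic Neurons_2. CART Neurons_1 had 279 CPM of Cartpt against 496 CPM in POMC/CART neurons. The one labelled AVasopressin had 3042 CPM of Avp, the vasopressin transcript, against 21430 CPM in the one labelled Oxytocin+, AVP, which was the highest in both Avp and Oxt. These are called here by their labels only. The one labelled MCH was the highest in Pmch, its own transcript, and held a summed level of 10 endothelial and mural markers of 1103 and 3569 CPM in wild type and 2595 and 4827 CPM in TRα1+m, so vascular transcripts were counted with it.

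Of the 68 genes, 54 reached a mean of 10 CPM in at least 1 main cluster and 10 peaked between 1 and 10 CPM. The other 4 (Ntn5, Robo3, Robo4 and Sema3g) stayed under 1 CPM in every main cluster. The 54 genes were spread over all cell types, with 24 highest in Neurons_1, 11 in oligodendrocyte progenitor cells (OPC), 7 in oligodendrocytes, 7 in microglia and macrophages, and 5 in astrocytes. In 40 of the 54 the same cluster was highest in all 4 libraries, in 38 the libraries of the highest cluster did not overlap those of the second, and in 21 the highest mean was at least 2 times the second. The clusters were made from the same counts, so that these levels are a description and were not tested. Neither these counts of genes nor those for tanycytes below were made over all genes. They therefore cannot show whether guidance genes differ from other genes in this.

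**Figure D1:**
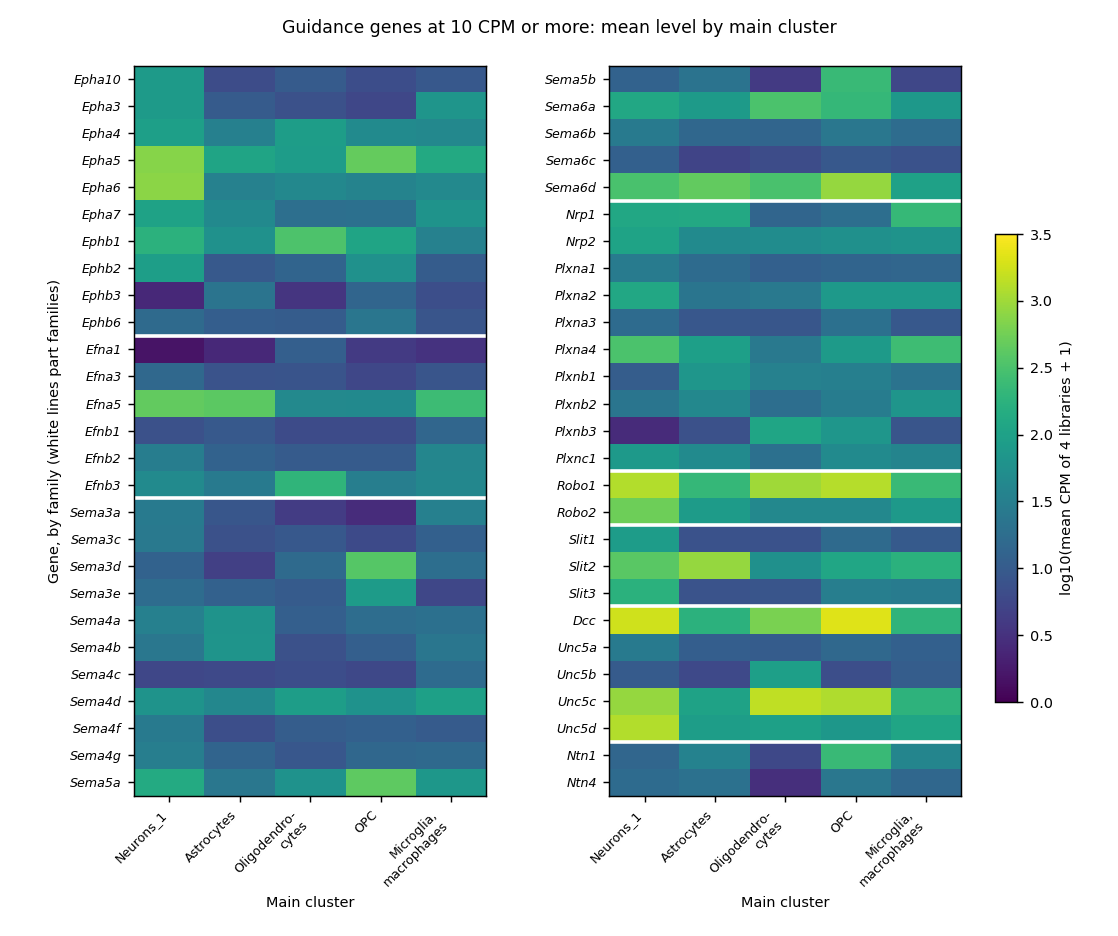
Mean level of the 54 guidance genes that reached 10 CPM in a main cluster, as log10(mean CPM of 4 libraries + 1), with genes in rows by family and the 5 main clusters in columns. Colours are to be read along a row, and the bright single cells of Sema3d, Sema5b and Ntn1 in OPC, Epha6 and Unc5d in Neurons_1, and Unc5b and Efnb3 in oligodendrocytes are the genes described in the text.

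Receptors of several families were highest in Neurons_1. Epha6, an ephrin-A receptor, stood at 824 and 752 CPM in wild type and 785 and 729 CPM in TRα1+m, whereas its second cluster, microglia and macrophages, had a mean of 42.8 CPM, a ratio of 18.1. The netrin receptor Unc5d gave 1294 and 1145 CPM in wild type and 1374 and 1158 CPM in TRα1+m, 10.9 times its second mean of 114 CPM. Robo2, a receptor for Slits, gave 542, 552, 489 and 524 CPM and was 6.48 times its second mean. All libraries of Neurons_1 lay far above all glial libraries for these genes. Of the Slit ligands, Slit1 had a mean of 84.7 ± 12.2 CPM (SD, n = 4) in Neurons_1 against 15.2 CPM in OPC, and Slit3 had 170.1 against 30.8 CPM. The semaphorin with the largest ratio was Sema4f, a transmembrane class 4 member, at 26.4 ± 6.02 CPM (SD, n = 4) against 10.9 CPM in OPC. Epha10, an Eph receptor without kinase activity, was 8.77 times as high in Neurons_1 as in its second cluster.

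Among the genes highest in OPC, ligands had the largest ratios. Sema3d, a class 3 semaphorin, gave 439.6 and 401 CPM in wild type and 353 and 319 CPM in TRα1+m, 21.4 times its second mean of 17.6 CPM, the largest ratio among the 54 genes. Netrin 1 (Ntn1) gave 222 and 303 CPM in wild type and 153 and 271 CPM in TRα1+m, 6.28 times its second mean of 37.8 CPM. The lowest OPC library of either gene was above every library of every other main cluster. Sema5b and Sema3e were also highest in OPC, by ratios of 11.5 and 4.94, as was Sema5a by 3.17. Dcc, the attractive netrin receptor, had means of 2123 CPM in OPC, 1778 CPM in Neurons_1 and 629 CPM in oligodendrocytes, whereas astrocytes had 175 CPM. Robo1 had means of 1297 CPM in OPC, 1249.6 CPM in Neurons_1 and 1006 CPM in oligodendrocytes, with overlapping libraries between the first 2 of these.

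In oligodendrocytes a netrin receptor and an ephrin had the largest ratios. Unc5b, a repulsive netrin receptor, gave 56.7 and 123 CPM in wild type and 51.7 and 142 CPM in TRα1+m in oligodendrocytes, and had a mean of 6.02 CPM in OPC and 9.74 CPM in its second cluster, a ratio of 9.57. Both repeat 2 libraries were more than 2 times as high as both repeat 1 libraries. Efnb3, a transmembrane ephrin, gave 162, 248, 146 and 218 CPM, 4.14 times its second mean in Neurons_1. The libraries of oligodendrocytes did not overlap those of any other main cluster for Unc5b or Efnb3. Unc5c had a mean of 1469.6 CPM in oligodendrocytes and 1192 CPM in OPC, and Plxnb3, a semaphorin receptor of the plexin B class, 113 and 68.0 CPM. Ephb1 and Sema6a completed the group of 7 with Efna1, which had a mean of 10.3 CPM.

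In astrocytes, Slit2 gave 1007 and 937 CPM in wild type and 907 and 651 CPM in TRα1+m, 2.17 times its mean of 403 CPM in Neurons_1. Plxnb1, a receptor for class 4 semaphorins, had a mean of 68.8 ± 18.3 CPM (SD, n = 4) there, 2.07 times the second, and Sema4b had 63.0 ± 4.76 CPM (SD, n = 4), 2.72 times the second. Within this cluster Slit2 was highest in the tanycytes, the cells that line the floor of the brain ventricle and that the authors annotated as a sub-cluster. Tanycytes had 3502 ± 398 CPM (SD, n = 4) of Slit2 and the remaining astrocytes 305 ± 42.5 CPM (SD, n = 4), a ratio of 11.5. The remaining astrocytes thus lay below Neurons_1 for this gene.

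Of 33 guidance genes at 20 CPM or more in either group of nuclei, 12 were at least 3 times as high in tanycytes as in the remaining astrocytes, and 3 were at least 3 times as low. Efna5, a membrane-anchored ephrin, had the largest ratio, 19.6, with 1888 ± 249.9 CPM (SD, n = 4) in tanycytes against 96.3 CPM. Ephb1, an ephrin-B receptor, had 255 against 17.2 CPM, and Dcc had 469.8 against 109 CPM. Every tanycyte library lay above every library of the remaining astrocytes for Slit2, Efna5, Ephb1 and Dcc. In the other direction, Nrp1 had 30.0 CPM in tanycytes and 152 CPM in the remaining astrocytes, Sema4a had 14.6 and 71.2 CPM, and Ephb3 had 2.60 and 25.0 CPM.

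Microglia and macrophages were the highest cluster for 7 genes, and in 2 of them the libraries did not overlap those of the second cluster. Nrp1, a co-receptor for class 3 semaphorins and for vascular endothelial growth factor, gave 194 and 227 CPM in wild type and 279 and 178 CPM in TRα1+m, against 130.3 CPM in astrocytes. Efnb1 had 13.2 CPM against 8.49 CPM. Sema4c had the largest ratio, 2.71, but its libraries ranged from 1.57 to 26.8 CPM and overlapped those of oligodendrocytes. The summed level of the endothelial and mural markers in this cluster averaged 839.8 CPM, and their part in these levels was not tested.

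Within Neurons_1, 12 sub-clusters had enough nuclei for comparison, and the level of a guidance gene could differ widely between them. Sema3c varied most, with a mean of 189.6 CPM in the MCH-labelled sub-cluster and 118 CPM in the Orexin+-labelled one against 2.67 CPM in somatostatin neurons, a ratio of 70.9 between the highest and the lowest. In the MCH-labelled sub-cluster Sema3c stood at 102 and 244 CPM in wild type and 153 and 259 CPM in TRα1+m. The libraries ranked there as they did for the endothelial and mural marker sums, whose part in this level was not tested. Epha3 ranged from 424 CPM in somatostatin neurons to 7.76 CPM in Oxytocin+, AVP neurons, a ratio of 54.7. Unc5d ranged from 3155 CPM in NPY/AgRP neurons to 76.1 CPM in CART Neurons_1, a ratio of 41.5.

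The sub-clusters labelled for a neuropeptide differed in the guidance genes that stood out in them. The AVasopressin-labelled sub-cluster had 170.2 ± 19.0 CPM (SD, n = 4) of Sema3e, a ligand of plexin D1, and no other sub-cluster averaged more than 29.3 CPM, and it also held the highest Epha5, at 1227 CPM. Oxytocin+, AVP neurons had the highest Slit2 of the neurons, at 1187 ± 183 CPM (SD, n = 4), and 367 CPM of Slit3. NPY/AgRP neurons, which drive feeding, combined Unc5d with 1166 ± 204 CPM (SD, n = 4) of Efna5. POMC/CART neurons, their satiety-promoting counterpart, also had high Efna5, at 907 ± 102 CPM (SD, n = 4), together with 33.4 CPM of Unc5b. The sub-cluster labelled Orexin+ was set apart by Sema6d, at 2068 ± 109.9 CPM (SD, n = 4) against 532 CPM in the next. Its lowest library, at 1917 CPM, was above the mean of every other neuronal sub-cluster.

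Somatostatin neurons combined Epha3 with 477 ± 40.9 CPM (SD, n = 4) of Slit3. CART Neurons_1 held the highest levels of both neuropilins, Nrp1 at 509 ± 15.0 CPM and Nrp2 at 362 ± 22.2 CPM (SD, n = 4 each), and was also the highest in Dcc, Epha7 and Ephb1. Of the larger classes, Glutamatergic Neurons_2 had 573 ± 23.8 CPM (SD, n = 4) of Slit3 and 975 CPM of Epha5. Glutamatergic Neurons_3 had 58.0 ± 17.9 CPM (SD, n = 4) of Ntn1, 10.9 times the median over the sub-clusters, and 23.2 CPM of Sema5b. In the MCH-labelled sub-cluster Ntn1 had a mean of 33.7 CPM. Glutamatergic Neurons_1 had 108 CPM of Epha10 and 23.9 CPM of Sema3c, and GABA neurons had 559.7 CPM of Efna5 and 108 CPM of Nrp2, each less than 3 times its median over the sub-clusters.

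**Figure D2:**
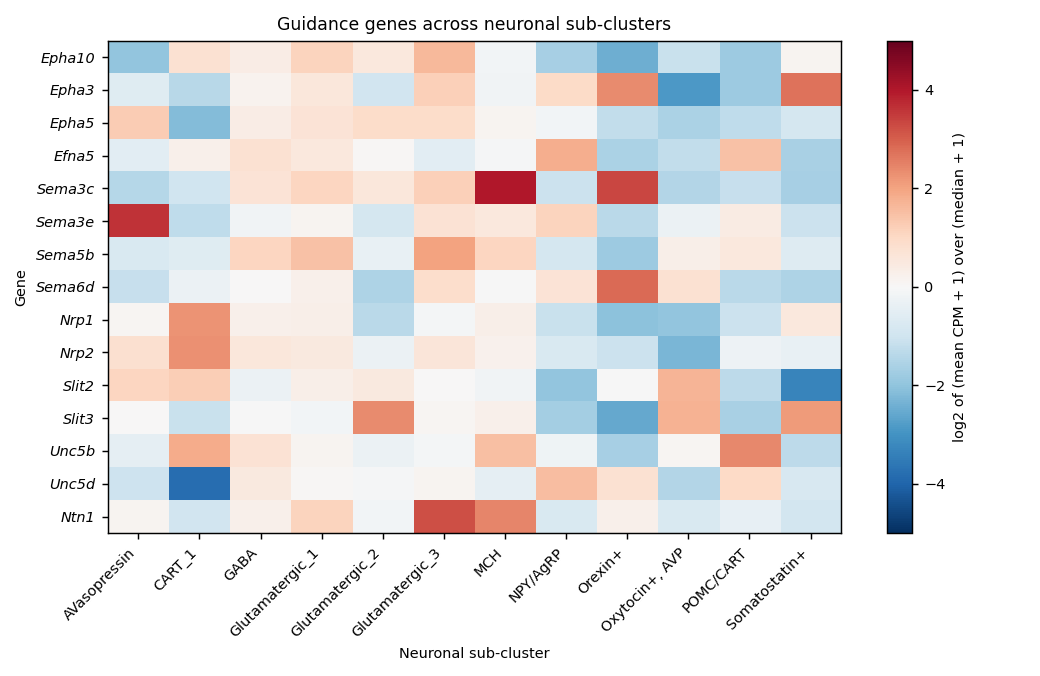
Levels of the guidance genes named for a neuronal sub-cluster, as log2 of (mean CPM + 1) over (median over the 12 sub-clusters + 1), with genes in rows and sub-clusters in columns. Red marks levels above the median, such as Sema3e in the AVasopressin-labelled, Sema3c in the MCH-labelled, Sema6d in the Orexin+-labelled and Unc5d in the NPY/AgRP sub-cluster, and blue marks levels below it.

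The comparison of the genotypes asked whether the mutant receptor goes with other guidance gene levels in the adult hypothalamus. In the 5 main clusters no guidance gene was called between TRα1+m and wild type at an adjusted p of 0.05 (edgeR, Benjamini-Hochberg over all genes of a cluster), in 256 tests of guidance genes, beside 0.0188% of all gene tests and 0.103% of those in oligodendrocytes. DESeq2 called none either. At an unadjusted p under 0.05 (edgeR) there were 1 of 65 guidance genes in Neurons_1, beside 193 of all 19926 genes. The counts were 1 of 60 in astrocytes, beside 255 of 14797, and 4 of 50 in oligodendrocytes, beside 672 of 12630. They were 3 of 46 in OPC, beside 185 of 11248, and 1 of 35 in microglia and macrophages, beside 226 of 10451. The median log2 fold change over the guidance genes was -0.07 in Neurons_1, -0.04 in astrocytes, 0.04 in oligodendrocytes, -0.01 in OPC and -0.02 in microglia and macrophages. The 95% interval of the log2 fold change lay within ±1 for 47 of 65 genes in Neurons_1, for 34 of 60 in astrocytes and for 19 of 50 in oligodendrocytes, so that 2-fold differences were within reach for part of the genes only.

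Without the block, the only called difference was in a sub-cluster. In NPY/AgRP neurons Epha3, an Eph receptor for A-type ephrins (GRCm38 chromosome 16, 63543534 to 63864175, minus strand), stood at 271 and 172 CPM in wild type and at 31.8 and 15.9 CPM in TRα1+m. The 2 genotypes did not overlap, and the wild-type mean of 221 ± 70.1 CPM was 9.28 times the TRα1+m mean of 23.8 ± 11.3 CPM (SD, n = 2 each). The log2 fold change was -3.27 (SE 0.386, adjusted p = 0.0475, edgeR's quasi-likelihood test), and Epha3 was the only gene called among the 8380 tested in this sub-cluster, which is 0.0119% of them. Over all 13 sub-clusters tested it was the single call in 582 tests of guidance genes, beside 0.00339% of all gene tests. The p-values were adjusted within each sub-cluster and not across the 13, so that 0.0475 does not allow for the search over sub-clusters. With the repeat as a block the log2 fold change was -3.26 (adjusted p = 7.68e-06).

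The wild-type libraries held 153 and 149 Epha3 UMIs in NPY/AgRP neurons and the TRα1+m libraries 14 and 9. A single nucleus held 12.4 and 8.05% of these UMIs in wild type and 14.3 and 33.3% in TRα1+m. Epha3 was detected in 41 of 135 and 45 of 160 wild-type nuclei and in 11 of 105 and 6 of 110 TRα1+m nuclei. When each nucleus was thinned to 2000 UMIs, with 1 to 7 shallower nuclei left out per library, the shares were 21.1 and 14.0% in wild type and 4.00 and 3.67% in TRα1+m. Oxytocin+, AVP neurons, the sub-cluster with the lowest Epha3, had thinned shares of 1.96, 2.63, 2.26 and 0%. The exact 95% binomial intervals, which cover counting error only, were 14.4 to 29.2% and 8.99 to 20.4% in wild-type NPY/AgRP nuclei and 1.10 to 9.93% and 1.01 to 9.13% in TRα1+m, and for 0 of 47 Oxytocin+, AVP nuclei the upper limit was 7.55%. The TRα1+m NPY/AgRP shares thus lay within the intervals of the Oxytocin+, AVP nuclei.

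The identity transcripts of the sub-cluster did not follow the genotype in the same way. Agrp gave 418 and 1261 CPM in wild type and 499.9 and 1248 CPM in TRα1+m, and Npy gave 412 and 2988 CPM in wild type and 593 and 3639 CPM in TRα1+m, so that both followed the repeat. Among nuclei with at least 1 UMI of each of these neuropeptides, Epha3 stood at 320.2 and 171 CPM in wild type and at 30.4 and 16.7 CPM in TRα1+m, a log2 ratio of -3.38. Pmch, the transcript of another neuron type, stood at 308, 173 and 270.4 CPM in the first 3 libraries and at 2018 CPM in TRα1+m repeat 2. Avp stood at 324 and 361 CPM in wild type and at 198 and 47.6 CPM in TRα1+m, without overlap. Pomc stood at 23.0 and 30.0 CPM in wild type and at 31.8 and 84.6 CPM in TRα1+m, also without overlap. Oxt, Hcrt and Sst overlapped between the genotypes. The part of these transcripts in the Epha3 result was not tested.

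**Figure D3:**
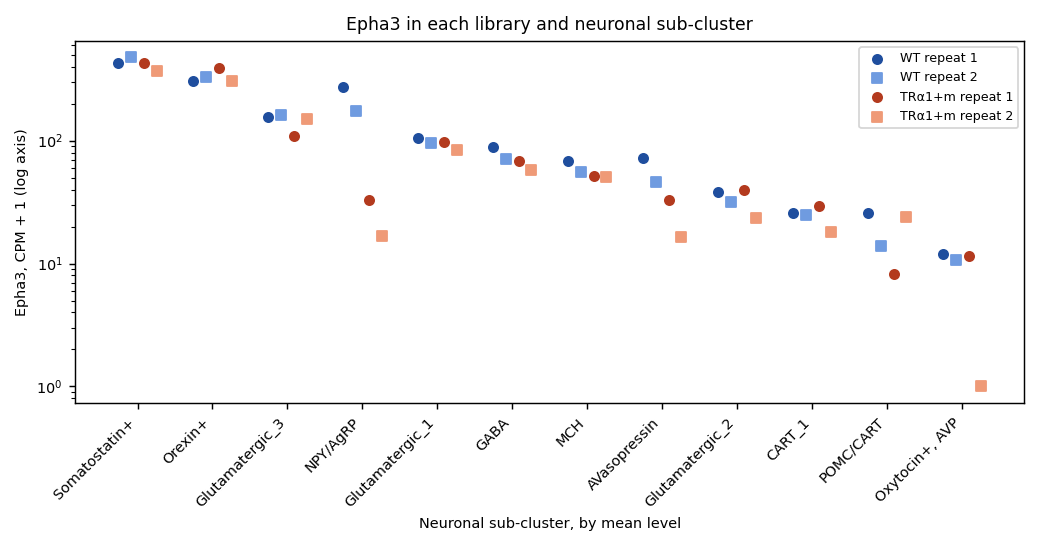
Epha3 in each neuronal sub-cluster, as CPM + 1 on a log axis, with 1 point per library (blue, wild type, and red, TRα1+m; circles, repeat 1, and squares, repeat 2). In NPY/AgRP neurons the wild-type points at 271 and 172 CPM stand clear of the TRα1+m points at 31.8 and 15.9 CPM, whereas in somatostatin neurons the genotypes overlap between 369 and 476 CPM.

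Epha3 was not called in the 3 sub-clusters with a higher mean level than NPY/AgRP neurons, with or without the block. In somatostatin neurons, the highest in Epha3, wild type had 424 and 476 CPM and TRα1+m 428 and 369 CPM, and in the Orexin+-labelled sub-cluster the values were 304 and 325 CPM against 391 and 305 CPM, both with overlapping genotypes. Glutamatergic Neurons_3 had 155 and 162 CPM in wild type and 108 and 149 CPM in TRα1+m, without overlap. Epha3 could be tested in 12 of the 13 sub-clusters, which include tanycytes, and its log2 fold change was negative in 10 and positive in 2. The sub-clusters came from the same 4 libraries, and such directions were not counted over all genes. In the AVasopressin-labelled sub-cluster the levels were 71.5 and 45 CPM in wild type and 31.6 and 15.6 CPM in TRα1+m, without overlap, and the gene was called only with the repeat as a block (log2 fold change -1.30, edgeR adjusted p = 0.0006, against 1.00 without the block), beside 0.364% of all genes. A test of the difference itself, added after these values were seen, compared the genotype effect in NPY/AgRP neurons with that in the rest of Neurons_1. It gave a further log2 change of -2.96 (SE 0.258, edgeR adjusted p = 4.44e-26), and 0.347% of all genes were called in that test.

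The same test called 3 further guidance genes, all in the other direction. Dcc stood at 257 and 289 CPM in wild-type and at 529 and 497 CPM in TRα1+m NPY/AgRP neurons, and its genotype effect exceeded that in the rest of Neurons_1 by a log2 change of 0.98 (SE 0.140, edgeR adjusted p = 6.19e-09). The shares of nuclei with Dcc were closer, at 37.0 and 36.9% in wild type and 40.0 and 44.5% in TRα1+m. A single nucleus held 13.1 and 12.4% of the Dcc UMIs in wild type and 10.7 and 15.6% in TRα1+m. Robo1, a Slit receptor, stood at 149 and 101 CPM in wild type and 257 and 236 CPM in TRα1+m, with a further log2 change of 1.08 (SE 0.165, edgeR adjusted p = 1.57e-07). Epha6 stood at 69.0 and 103 CPM in wild type and 207 and 166 CPM in TRα1+m, with a further log2 change of 1.13 (SE 0.184, edgeR adjusted p = 1.39e-06), but without wild-type repeat 1 its adjusted p was 0.110. None of these libraries overlapped between genotypes. These genes, like the others called for genotype in this report, were picked by tests on the same libraries, so a lack of overlap adds no support. Within the sub-cluster alone, Dcc and Robo1 were called only with the repeat as a block, with adjusted p-values of 0.0111 and 0.0370 (edgeR), beside 0.251% of all genes.

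Dcc differed by genotype in opposite directions in 2 other groups of nuclei. In Oxytocin+, AVP neurons it stood at 1769.5 and 1186 CPM in wild type and at 3011 and 3557 CPM in TRα1+m, and with the repeat as a block it was called (log2 fold change 1.11, edgeR adjusted p = 0.0150, against 0.345 without the block, beside 0.292% of all genes). Its genotype effect there differed from that in the rest of Neurons_1 by a log2 change of 1.25 (SE 0.178, edgeR adjusted p = 1.21e-08), beside 0.164% of all genes, in a test also added after the values were seen. These sums came from 48 to 134 nuclei per library. Oxt, the transcript of the hormone, stood at 6249.7 and 33076 CPM in wild type and 3787 and 12740.4 CPM in TRα1+m, and its part was not tested.

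In tanycytes the direction was the opposite. Dcc stood at 528 and 760.4 CPM in wild type and at 283 and 308 CPM in TRα1+m, without overlap, and was called with the repeat as a block (log2 fold change -1.09, edgeR adjusted p = 9.70e-08), as were 0.481% of all genes. Without the block it was not called (adjusted p = 1.00), nor was any guidance gene in the test of tanycytes against the rest of the astrocyte cluster. That test called 0.007% of all genes. At an unadjusted p under 0.05 (edgeR) it held 7 of 58 guidance genes, beside 422 of all 14280 genes. With the block, that test gave Dcc a further log2 change of -0.81 (edgeR adjusted p = 5.57e-05), beside 0.301% of all genes. In the whole astrocyte cluster Dcc stood at 194 and 244 CPM in wild type and 157 and 105 CPM in TRα1+m, and the block again gave a call (log2 fold change -0.74, edgeR adjusted p = 0.0260). Tanycytes were 17.0 and 17.3% of the nuclei of that cluster in wild type and 14.9 and 13.2% in TRα1+m, and the part of that share in the cluster-wide value was not tested. Robo2 was also lower in TRα1+m tanycytes with the block, at 138 and 133 against 84.2 and 71.0 CPM, and Sema5b was higher, at 22.5 and 21.7 against 33.1 and 77.8 CPM.

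Of the 7 guidance gene calls that the block gave in the main clusters, 4 were in oligodendrocytes, as were 550 of its 841 calls over all genes. The fit with the repeat as a block called 4 guidance genes there, beside 4.35% of all genes tested. Ephb2, an ephrin-B receptor kinase (chromosome 4, 136647539 to 136835988, minus strand), stood at 19.3 and 18.8 CPM in wild type and at 5.91 and 5.15 CPM in TRα1+m, from 50 and 51 UMIs against 16 and 13 UMIs. The wild-type mean of 19.0 ± 0.35 CPM was 3.44 times that of TRα1+m, 5.53 ± 0.541 CPM (SD, n = 2 each), and the genotypes did not overlap (log2 fold change -1.71, edgeR adjusted p = 7.64e-05 with the block and 0.198 without it). Ephb2 was detected in 2.86 and 3.58% of wild-type oligodendrocyte nuclei and in 0.95 and 0.849% of TRα1+m nuclei. In astrocytes, with library medians of 1683 to 2212 UMIs per nucleus against 1493 to 1812 in oligodendrocytes, these shares were 1.52 and 1.82% in wild type and 1.82 and 1.36% in TRα1+m, above both TRα1+m oligodendrocyte shares and below both wild-type ones.

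The genotype effect on Ephb2 differed between cell types without the block. It stood at 96.6 and 88.6 CPM in wild type and 90.5 and 86.7 CPM in TRα1+m in Neurons_1, and at 59.1 and 55.2 CPM against 56.9 and 59.3 CPM in OPC. Set against Neurons_1, the effect in oligodendrocytes differed by a log2 change of -1.62 (SE 0.242, edgeR adjusted p = 0.0324), the only guidance gene called, beside 0.182% of all genes. Set against OPC it differed by -1.67 (SE 0.330, edgeR adjusted p = 0.0422), again alone, beside 0.403% of all genes. Set against astrocytes no guidance gene was called by edgeR without the block, and 0.327% of all genes were called. At an unadjusted p under 0.05 (edgeR) that test held 6 of 60 guidance genes, beside 873 of all 14693 genes. DESeq2 called none of the differences from OPC or astrocytes. The summed OPC markers in oligodendrocytes were 159.7 and 154 CPM in wild type and 177 and 116 CPM in TRα1+m, and the summed neuronal markers 1486 and 1554 CPM against 1517 and 1213 CPM, so that both sums were lowest in TRα1+m repeat 2, and their part in the Ephb2 result was not tested.

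The other 3 genes behaved differently from each other. Epha4, a receptor for both ephrin classes (chromosome 1, 77367185 to 77515088, minus strand), stood at 57.9 and 74.1 CPM in wild-type and at 97.9 and 121 CPM in TRα1+m oligodendrocytes, 1.66 times as high without overlap (log2 fold change 0.80, edgeR adjusted p = 0.000137 with the block, 0.411 without it). Sema4d, an inhibitory transmembrane semaphorin, stood at 93.0 and 122 CPM in wild type and 51.7 and 82.8 CPM in TRα1+m (log2 fold change -0.63, edgeR adjusted p = 0.00602 with the block, 0.983 without it). The genotypes did not overlap, and the gene also differed between the repeats, by a log2 change of 0.51 (edgeR adjusted p = 0.0209). Sema3c, a secreted class 3 semaphorin, stood at 12 and 11.8 CPM against 5.91 and 3.56 CPM (log2 fold change -1.26, edgeR adjusted p = 0.0369 with the block, 0.633 without it). With the block, the genotype effect in oligodendrocytes differed from that in Neurons_1 for 5 guidance genes (1.88% of all genes), in OPC for 3 (2% of all genes) and in astrocytes for 6 (2.65% of all genes). Epha4 and Ephb2 were among them in all 3 tests and Sema4d in those against Neurons_1 and astrocytes.

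**Figure D4:**
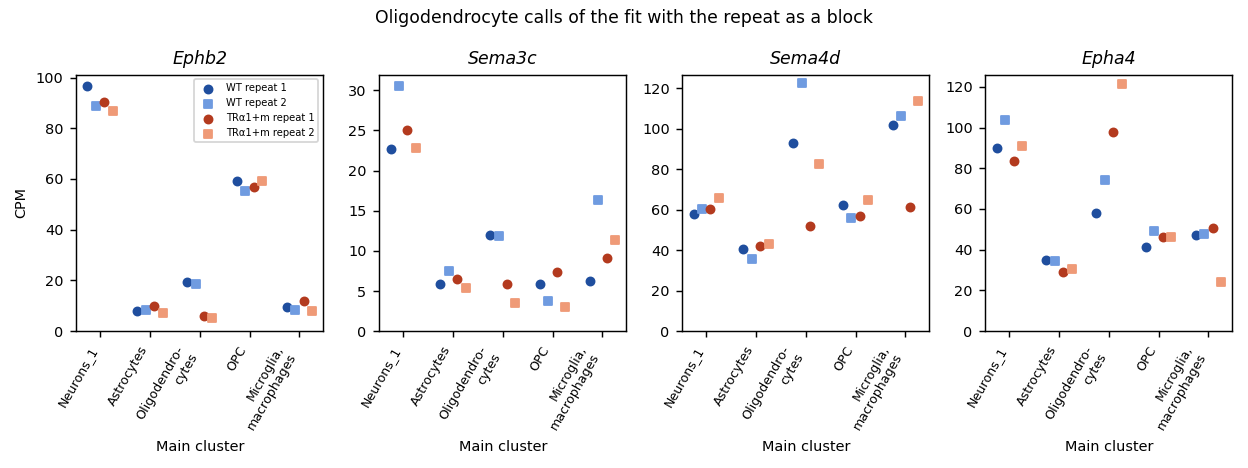
Levels in CPM of the 4 guidance genes called in oligodendrocytes with the repeat as a block, by main cluster, with 1 point per library and each vertical axis starting at 0 (blue, wild type, and red, TRα1+m; circles, repeat 1, and squares, repeat 2). Ephb2 is at 19.3 and 18.8 CPM in wild-type and 5.91 and 5.15 CPM in TRα1+m oligodendrocytes and between 55.2 and 59.3 CPM in all OPC libraries, and the TRα1+m points of Epha4 lie above the wild-type points in oligodendrocytes.

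In OPC, Slit2 was the only guidance gene called with the block, beside 0.569% of all genes. It stood at 95.3 and 87.0 CPM in wild type and at 146 and 142 CPM in TRα1+m, without overlap (log2 fold change 0.62, edgeR adjusted p = 0.0297 with the block, 1.00 without it). Of the other guidance genes with the smallest p there, Ephb1 had a log2 fold change of 0.58 and Sema4g of 1.09, neither of them called. In astrocytes the block called Ephb3 beside Dcc, with 1.28% of all genes called. Ephb3 stood at 13.5 and 17.0 CPM in wild type and 16.7 and 36.9 CPM in TRα1+m, which overlapped. The next smallest p-values in astrocytes belonged to Sema6d and Ephb6, with log2 fold changes of 0.26 and 0.69 that were not called.

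In Neurons_1 and in microglia and macrophages no guidance gene was called with or without the block. The blocked edgeR fit called 0.01% and 0.335% of all genes there. At an unadjusted p under 0.05, that fit held 16 of 65 guidance genes in Neurons_1, beside 1583 of all 19926 genes. In microglia and macrophages it held 5 of 35, beside 634 of all 10451 genes. The smallest p-values in Neurons_1 were those of Ntn4, a netrin of basement membranes, at 17.3 and 19.2 CPM in wild type and 13.0 and 13.4 CPM in TRα1+m, of Epha3 at 93.9 and 82.3 CPM against 74.7 and 67.1 CPM, and of Robo2. Their log2 fold changes were -0.53, -0.38 and -0.18. The genotypes did not overlap for any of these 3 genes, but they were picked by their small p-values, so the lack of overlap adds no support. In microglia and macrophages the smallest p-values were those of Sema6a, Sema4b and Sema3d, with log2 fold changes of 0.88, 0.81 and 0.77.

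Over the sub-clusters the block gave 16 calls, 5 higher and 11 lower in TRα1+m, for 9 guidance genes in 10 sub-clusters, beside 0.425% of all gene tests. Apart from those already described, Epha3 was lower in GABA neurons (88.0 and 70.1 against 67.3 and 56.7 CPM), as were Robo2 (409 and 429.7 against 366 and 366 CPM) and Ntn4 (18.2 and 21.0 against 13.7 and 13.9 CPM). Ntn4 was also lower in Glutamatergic Neurons_2, at 11.0 and 10.2 against 6.91 and 3.92 CPM. Robo2 was lower in the Orexin+-labelled sub-cluster, at 1291 and 1046 against 853 and 812 CPM. Every Epha3, Robo2 and Ntn4 call was in the lower direction. Plxna2, a receptor for class 3 and class 6 semaphorins, was lower in CART Neurons_1 (116 and 87.6 against 64.5 and 58.6 CPM), and Sema5a was lower in POMC/CART neurons (241 and 229 against 154 and 128 CPM). Robo4, the endothelial member of its family, was called higher in the MCH-labelled sub-cluster at 3.24 and 17.3 against 10.9 and 41.5 CPM, which overlapped and went with the endothelial and mural marker sums given above.

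Other genes of the pathway were listed by function, with earlier results of these data known. Of 28 co-receptors and adhesion partners and 42 intracellular effectors, edgeR without the block called none in any main cluster. In oligodendrocytes 2 of 25 and 6 of 41 tested had an unadjusted p under 0.05 (edgeR), beside 672 of all 12630 genes. DESeq2 called 1, Lrrc4c in oligodendrocytes, with a log2 fold change of -1.11 (SE 0.285, DESeq2 adjusted p = 0.0180). With the block, 4 of 25 co-receptors tested were called in oligodendrocytes, 2 higher and 2 lower, beside 4.35% of all genes. Lrrc4c, a synaptic receptor for netrin-G1, stood at 1764 and 1688 CPM in wild type and 789 and 739 CPM in TRα1+m, and Cntn4, an adhesion molecule of the contactin family, at 64.0 and 69.3 against 131 and 158 CPM. Itgb1 was higher and Adgrl3, a latrophilin, was lower. Of 41 effectors tested there, Pak3, Srgap1 and Srgap3 were higher, and Chn1, a Rac-inactivating protein downstream of Eph receptors, and Enah, an actin regulator, were lower. In OPC the block called Chl1 (118 and 145 against 67.5 and 60.1 CPM) and Chn1 (115 and 113 against 64.4 and 67.0 CPM), both lower, beside 0.569% of all genes, and in microglia and macrophages Dscaml1, higher, beside 0.335% of all genes. Under the block Chn1 was therefore called lower in TRα1+m in both stages of the oligodendrocyte lineage.

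The experimental repeats, each of which held both genotypes, gave more calls than the genotypes. With genotype as a term, edgeR called 30 of 65 guidance genes between the repeats in Neurons_1, beside 25.2% of all genes. The counts were 15 of 60 in astrocytes (20.6% of all genes), 9 of 50 in oligodendrocytes (12.4%), 9 of 46 in OPC (11.4%) and 7 of 35 in microglia and macrophages (6.27%). Over the 5 clusters 41 guidance genes were called, 18 of them in at least 2 clusters, and in 16 of those 18 the direction was the same in each. The clusters came from the same 4 libraries. The recurrence was not counted over all genes, so it cannot be read as a trait of guidance genes. Epha5 was lower in repeat 2 in all 5 clusters, Unc5d was lower in 4, and Plxnb2 was higher in 4. The summed markers of a cluster's own cell type were also higher in both repeat 2 libraries than in both repeat 1 libraries in each of the 5 main clusters. The oligodendrocyte list stood at 10458 and 9451 CPM in the repeat 1 and 20065 and 23947 CPM in the repeat 2 libraries of oligodendrocytes, and the list of microglia and macrophages at 4030 and 3440 CPM against 8389 and 10410 CPM in their cluster. The astrocyte list stood at 5909 and 6352 CPM against 7984 and 9682 CPM in astrocytes. The part of these shifts in the repeat differences of the guidance genes was not tested.

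Both directions occurred among the genes with the smallest p-values for the repeat. In Neurons_1, Sema6b stood at 15.7 and 17.2 CPM in the repeat 1 libraries and 38.1 and 36.7 CPM in the repeat 2 libraries, and Efna3 at 7.40 and 9.87 against 18.6 and 20.5 CPM, each with a log2 change of 1.15 (edgeR adjusted p = 0.000152 and 0.000488). Sema4g rose by a log2 change of 0.82 in the same cluster. In oligodendrocytes Unc5b had a log2 change of 1.27 (edgeR adjusted p = 9.05e-10), Efnb3 of 0.58 and Epha5 of -0.64. In OPC the genes with the smallest p were Ephb6, Sema6b and Ntn1, with log2 changes of 1.73, 1.39 and 0.56. In astrocytes Sema3e was lower in repeat 2 by a log2 change of -1.77, at 12.1 and 22.7 CPM against 4.68 and 5.40 CPM, whereas Sema4a and Plxnb1 were higher by 0.65 and 0.63. In microglia and macrophages Plxnb2 and Sema4c were higher by 1.68 and 1.82, and Epha5 was lower. The libraries of the repeats did not overlap for any of these genes, but they were picked by their small p-values, so the lack of overlap adds no support.

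**Figure D5:**
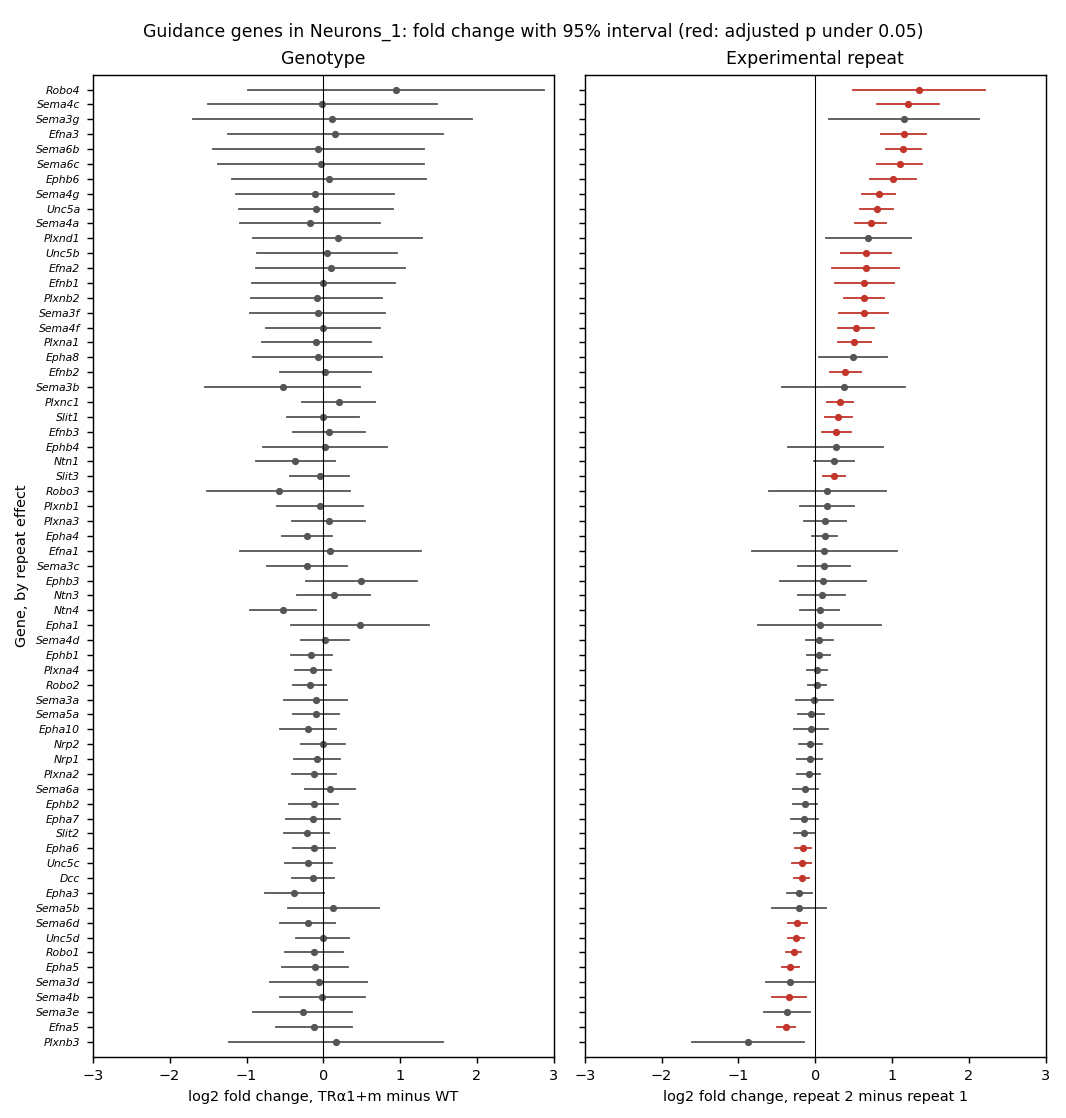
Log2 fold changes of the 65 guidance genes tested in Neurons_1, with their 95% intervals, for TRα1+m against wild type (left) and for repeat 2 against repeat 1 (right), in the same order of genes and on the same horizontal scale. Red marks an adjusted p under 0.05 (edgeR), which 0 genes reached for genotype and 30 for the repeat. The left panel comes from the fit without the block and the right panel from the fit with both terms. The widths of the intervals therefore cannot be compared between the panels. With both terms, 0 genes were called for genotype as well.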

How the data were processed

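The authors counted UMIs per gene and nucleus with Cell Ranger 5.0.1 on mm10 (GRCm38), introns included, filtered nuclei and doublets, and annotated clusters in Seurat; the raw counts deposited were used for the nuclei they kept and annotated. UMIs of the 68 genes and of all other genes were summed per library and cluster (minimum 10 nuclei per library). The genes and lists were chosen with earlier results of these data known. Genotypes, repeats and interactions (library as a block) were tested with edgeR 4.0.16 (filterByExpr, TMM, robust quasi-likelihood, two-sided, Benjamini-Hochberg over all genes of a cluster, threshold 0.05). The authors' rank-sum test over nuclei was not used, since nuclei of a pool are not replicates. Each repeat held both genotypes, so repeat numbers pair libraries: repeat differences correlated between genotypes across genes (Pearson r 0.393 to 0.668 over 5 clusters). Alternatives were DESeq2 1.42.0, RLE factors, no filter, the repeat as a block, a bias-adjusted fit, equal nuclei and leaving out each library. The script was tested on simulated data.

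Genes were named if called in either genotype fit, if at least 2 times as high in one main cluster as in any other (the largest ratio per family), by the 3 smallest genotype or repeat p-values per main cluster, or by the 2 largest ratios to the median per neuronal sub-cluster (20 CPM or more); others named were chosen after their values were seen. Gene positions are those of GENCODE vM21.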

Additional observations from a re-analysis of the deposited data

Results flagged for a closer look

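The genotype effect of a guidance gene differed between groups of nuclei of the same libraries in 7 tests of the difference (edgeR, interaction of genotype and cluster). These were Epha3 (-2.96, adjusted p = 4.44e-26), Dcc (0.98, adjusted p = 6.19e-09), Robo1 (1.08, adjusted p = 1.57e-07) and Epha6 (1.13, adjusted p = 1.39e-06) in NPY/AgRP neurons against the rest of Neurons_1, Dcc in Oxytocin+, AVP neurons against the rest of Neurons_1 (1.25, adjusted p = 1.21e-08), and Ephb2 in oligodendrocytes against Neurons_1 (-1.62, adjusted p = 0.0324) and against OPC (-1.67, adjusted p = 0.0422), each value a difference of log2 fold changes. The 8 sums of such a test came from 4 libraries, and its p-values rest largely on a spread shared across genes. The tests within Neurons_1 were added after the values were seen. Sub-clusters were annotated from the same counts, and the part of that assignment in these results was not tested.

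The cluster Neurons_2 entered no comparison, since 852 of its nuclei came from TRα1+m repeat 2 and 5, 1 and 6 from the other libraries. In that library 5 of the 68 guidance genes were higher in Neurons_2 than in every other cluster or sub-cluster. Ntn4 stood at 137 CPM against 64.3 CPM in tanycytes, the next highest, and Epha5 at 1559 CPM against 1041 CPM in the AVasopressin-labelled sub-cluster. Epha3 stood at 547 CPM against 369 CPM in somatostatin neurons. Epha6 stood at 1834 CPM and Sema3e at 203.7 CPM, against 1584 and 198 CPM in the next sub-clusters. None of these differences was tested.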

How the results depend on the processing

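Of 452 recomputed values of the 56 named fold changes, 392 kept direction and side of the threshold, 35 passed it in addition and 25 no longer passed it, and none reversed. The 392 include values called in neither fit, which say nothing on how stable a call is. The 25 come only from results called in the main fit. Epha3 in NPY/AgRP neurons was called in 9 of 10 alternatives (edgeR or DESeq2 adjusted p from 4.42e-21 to 0.0754), the exception being the bias-adjusted fit, with which no guidance gene was called in any sub-cluster (0). Ephb2 in oligodendrocytes differed from Neurons_1 in 5 of 8 alternatives (adjusted p from 3.38e-05 to 0.202) and from OPC in 4 of 8 (0.000162 to 0.641).

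With the replicate block, the pairing by repeat, the calls between genotypes numbered 2 in astrocytes, 4 in oligodendrocytes, 1 in OPC and 16 in sub-clusters, those of the interactions of oligodendrocytes 5 (Neurons_1), 3 (OPC) and 6 (astrocytes), and that of tanycytes 1. The block changed no other count by over 1.5 times. Without a filter on low counts there was 1 call between genotypes in oligodendrocytes (Ephb2), 4 in sub-clusters, and 2, 2 and 5 in the interactions against Neurons_1, OPC and astrocytes. Equal nuclei gave 2 calls in sub-clusters and 3 between repeats in microglia and macrophages. DESeq2 called 0 in the interaction with OPC, and between repeats 15 in Neurons_1, 1 in astrocytes, 1 in oligodendrocytes, 0 in OPC and 0 in microglia and macrophages. With the repeat alone, 4 were called in astrocytes, 1 in oligodendrocytes and 1 in microglia and macrophages, and RLE factors gave 5 in oligodendrocytes. At a minimum of 5 CPM, 8 genes were highest in astrocytes. The cause of these changes was not tested. The counts of calls here and in the next paragraph stand without the share of all genes called in the same setting. They show how the calls depend on the processing and cannot be read as a trait of guidance genes.

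Leaving out each library in turn gave 0 to 0 calls between genotypes in Neurons_1, astrocytes and OPC, 0 to 1 in oligodendrocytes (Epha4 without TRα1+m repeat 1), 0 to 2 in microglia and macrophages (Unc5c and Sema6a without TRα1+m repeat 1) and 2 to 3 in sub-clusters. The interactions gave 0 to 2 calls (Neurons_1), 0 to 1 (OPC), 0 to 1 (astrocytes), 4 to 5 (NPY/AgRP), 1 to 1 (Oxytocin+, AVP) and 0 to 1 (tanycytes, Dcc without TRα1+m repeat 2). The genes highest in a cluster numbered 23 to 24 (Neurons_1), 10 to 11 (OPC), 6 to 8 (oligodendrocytes), 7 to 7 (microglia and macrophages) and 5 to 7 (astrocytes). With a library left out, the lone library of a genotype was assumed to vary like the pair. The comparison of repeats could not be fitted without a library. With 36 to 4781 nuclei per library in the sub-clusters, low counts limit what could be seen there.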

Other observations

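Several receptors not named above also differed widely between the neuronal sub-clusters, and were picked after their values were seen. Unc5c, a repulsive netrin receptor, had a mean of 2204 CPM in Oxytocin+, AVP neurons and 121 CPM in the Orexin+-labelled sub-cluster. Epha7 had 352 CPM in CART Neurons_1 and 12.9 CPM in NPY/AgRP neurons, and Ephb1 had 462 CPM in CART Neurons_1 and 17.6 CPM in POMC/CART neurons. Dcc had 2991 CPM in CART Neurons_1 and 393 CPM in NPY/AgRP neurons, and Robo1 had 1542 CPM in somatostatin and 177 CPM in Oxytocin+, AVP neurons. CART Neurons_1, which had the lowest Unc5d, was thus the highest in Dcc, and NPY/AgRP neurons, which had the highest Unc5d, were the lowest in Dcc. These levels are a description, since the sub-clusters were made from the same counts.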
